A study of Mus musculus with 6 samples.

Results

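The mitosis and cytokinesis genes examined here are 32 genes that carry a cell from mitotic entry to the separation of the daughter cells. They were chosen by symbol, matched to Ensembl identifiers of the GRCm38 annotation (GENCODE M21), and all 32 were present among the 52550 mouse genes of the deposited files. All 32 also had enough reads to be tested, out of 14860 tested genes. By role they comprised 7 genes of mitotic entry, 2 of chromosome structure, 5 of the spindle, 8 of the centromere, kinetochore and spindle checkpoint, 2 of the chromosomal passenger complex, 2 of mitotic exit and 6 of the midzone and cytokinesis.

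Mitosis begins when Cdk1 binds cyclin B, condenses the chromosomes and lets a bipolar spindle form. Kinetochores then attach chromosomes to spindle microtubules while the spindle checkpoint holds back the anaphase-promoting complex. Once that complex is active it destroys cyclin B, and the central spindle directs RhoA and anillin to build the contractile ring. In the mouse heart most cardiomyocytes leave the cell cycle in the first weeks of life, and many pass a last mitosis without cytokinesis and become binucleated, while fibroblasts, endothelial cells and blood cells go on dividing. RNA of whole heart does not tell which of these cells carried a mitotic transcript, and fewer dividing cells cannot be told apart from less RNA per dividing cell.

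The series asked what deletion of the glucocorticoid receptor in cardiomyocytes does to gene expression of the heart soon after birth. Whole heart tissue at postnatal day 7 was homogenised, with 3 control and 3 GR-cKO libraries, GR-cKO being the deletion of the receptor gene Nr3c1 in cardiomyocytes. The labels call them biological replicates, and they are called hearts below, although whether a library held 1 heart or a pool is not stated. The sources used here do not give the Cre driver, the floxed exon, the strain or the alleles of the controls, and the tissue also held cells of types that the deletion does not aim at. The libraries were QuantSeq 3′ mRNA libraries, in which a read marks the 3′ end of a transcript, so that a count does not grow with transcript length.

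The libraries held 17824953 to 22574722 reads of mouse genes. The 32 members together took 18226 to 23313 reads in the control libraries, and 21414, 20410 and 11180 in GR-cKO 1, 2 and 3. Nr3c1 lay at 99.7 to 131 CPM (reads scaled to a common library total) in control and 49.2 to 57.6 CPM in GR-cKO hearts (log2 fold change -1.08, SE 0.125, edgeR adjusted p = 0.00101). Whether its 3′ end lies in the deleted part is not known here, so this checks the labels only in part. The heart muscle genes Myh6, Tnnt2 and Actc1 were at 6467 CPM or more in every library. Xist and Y-linked reads placed control replicate 1 and GR-cKO replicate 1 as female and the other 4 hearts as male. GR-cKO replicate 3 stood apart in that Gm42418, a transcript that overlaps ribosomal RNA sequence, took 10.9% of its reads against 5.47 to 7.69% in the other 5 libraries, and in that its TMM scaling factor was 0.904 against 1.01 to 1.06. Over the counts of all mouse genes, Gm42418 among them, it also differed most from the other libraries. The chi-square per degree of freedom between the counts of 2 libraries was 32.7 to 51.2 for its pairs and 9.62 to 25.1 for the others. How much of this came from the Gm42418 reads was not tested.

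Many mitotic genes share a known promoter layout, CCAAT boxes bound by NF-Y and a cell cycle genes homology region (CHR) bound by MuvB complexes. Of these complexes, DREAM holds the genes silent outside the dividing phases. RefSeq promoter windows (GRCm38.p6, 250 bases before to 50 bases after a start site) were at hand for 27 of the 32 members, in 29 windows. The CHR was searched as TTTGAA or as TTCGAA, and the box as CCAAT, on both strands. A CHR word was present in 23 of the 29 windows against 19.2% of all 32851 promoter windows of the same length. CCAAT was present in 24 of 29 windows against 37.4% of all windows, and a CHR word together with CCAAT in 21 of 29 against 7.53%. These are matches of letters and not measured binding.

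The 6 stretches below, from 200 bases before to 20 bases after the start site, show the layout in the member that differed most between libraries (Ube2c), in its partner in mitotic exit (Cdc20), in a cyclin, the kinase and a spindle motor that were low in the same library (Ccnb2, Cdk1, Kif11), and in a member with neither word in this window (Birc5). They are written 5′ to 3′ on the strand of the gene, and capitals mark the CHR words and CCAAT in either orientation. In Ube2c a CCAAT overlaps one on the other strand.
Ube2c, chr2:164769729-164769948, plus strand: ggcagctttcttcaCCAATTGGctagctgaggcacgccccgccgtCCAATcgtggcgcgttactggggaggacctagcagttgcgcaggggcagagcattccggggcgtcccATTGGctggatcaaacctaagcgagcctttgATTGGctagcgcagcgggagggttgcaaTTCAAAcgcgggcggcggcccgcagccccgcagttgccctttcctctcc
Cdc20, chr4:118437324-118437543, minus strand: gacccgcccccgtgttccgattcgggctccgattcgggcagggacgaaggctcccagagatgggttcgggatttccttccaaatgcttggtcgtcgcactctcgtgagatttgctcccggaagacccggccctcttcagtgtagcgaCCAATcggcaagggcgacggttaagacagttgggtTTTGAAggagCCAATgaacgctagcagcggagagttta
Ccnb2, chr9:70421535-70421754, minus strand: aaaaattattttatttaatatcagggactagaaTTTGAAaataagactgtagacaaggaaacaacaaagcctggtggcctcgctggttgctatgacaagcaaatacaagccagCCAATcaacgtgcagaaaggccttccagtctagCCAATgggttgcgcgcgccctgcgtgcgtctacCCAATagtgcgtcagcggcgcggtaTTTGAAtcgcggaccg
Cdk1, chr10:69352893-69353112, minus strand: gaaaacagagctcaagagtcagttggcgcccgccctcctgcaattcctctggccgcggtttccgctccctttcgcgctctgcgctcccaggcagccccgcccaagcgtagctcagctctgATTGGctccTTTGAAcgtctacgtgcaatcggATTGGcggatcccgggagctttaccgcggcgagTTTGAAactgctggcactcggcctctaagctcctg
Kif11, chr19:37376182-37376401, plus strand: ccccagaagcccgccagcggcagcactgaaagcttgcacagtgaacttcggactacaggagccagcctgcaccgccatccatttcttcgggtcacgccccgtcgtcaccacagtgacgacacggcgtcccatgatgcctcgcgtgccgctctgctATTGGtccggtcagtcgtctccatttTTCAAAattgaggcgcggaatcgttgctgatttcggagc
Birc5, chr11:117849037-117849256, plus strand: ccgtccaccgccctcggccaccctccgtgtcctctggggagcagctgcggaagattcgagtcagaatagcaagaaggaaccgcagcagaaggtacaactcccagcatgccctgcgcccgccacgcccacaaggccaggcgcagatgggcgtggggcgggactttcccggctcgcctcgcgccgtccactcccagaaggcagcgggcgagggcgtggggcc
The Ube2c stretch holds 5 CCAAT words, of both orientations, and 1 CHR word, Cdc20 holds 2 and 1, Ccnb2 holds 3 and 2, Cdk1 holds 2 and 2, and Kif11 holds 1 and 1. In Ube2c, Cdc20 and Kif11 the CHR word starts 29, 18 and 19 bases before the start site.

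The mitotic genes did not separate the groups, and they set GR-cKO replicate 3 apart from the other 5 hearts. That library also had the largest chi-square values against the others, a statistic that includes the Gm42418 reads. No member passed the edgeR quasi-likelihood test with Benjamini-Hochberg adjustment over all genes (smallest adjusted p = 0.998), where 0.00673% of tested genes passed, and DESeq2 and limma voom called no member either. At an unadjusted p under 0.05, 2 members were lower, Ccnb2 and Aurkb, where 2.13% of all tested genes were lower at that level, and 0 were higher (2.07% of all genes). Of the 32 log2 fold changes 23 were below 0, against 48.7% of all tested genes, with a median of -0.15 beside 0.01 for all genes. Without GR-cKO replicate 3, 13 were below 0 (50.7% of all genes) and the median was 0.07. In that fit 2 members, Top2a and Nuf2, were higher at an unadjusted p under 0.05 (2.49% of all genes) and 0 were lower (2.65%). Without GR-cKO replicate 1 there were 31 below 0 (49.5% of all genes), with a median of -0.31, and 11 members had an unadjusted p under 0.05, all lower (2.44% of all genes). The direction of the list thus followed which GR-cKO heart was present.

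A score per library, the mean log2 CPM of the 32 members relative to the mean of the 6 libraries, was 0.06, 0.21 and 0.06 in control replicates 1, 2 and 3. It was 0.31, 0.05 and -0.68 in the corresponding GR-cKO hearts. The GR-cKO hearts therefore held both the highest and the lowest score, and the control hearts lay between them. With spike-in scaling GR-cKO replicate 2 was at 0.27, above the controls at 0.04, 0.07 and 0.15. The SD of the score was 0.0864 in control and 0.512 in GR-cKO hearts (n = 3 each). Member by member, the SD of log2 CPM was larger in GR-cKO than in control for 29 of 32 genes, against 57% of all tested genes. The median of these SDs was 0.18 in control and 0.53 in GR-cKO hearts for the members, and 0.20 and 0.24 for all tested genes.

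The lowest of the 6 libraries was GR-cKO replicate 3 for 30 of the 32 members, against 22% of all tested genes, and it lay below all 3 controls for the same 30 (29.7% of all genes). Cks2 and Ndc80 were the exceptions. The highest library was GR-cKO replicate 1 for 15 members (16.1% of all genes), and in 17 members this heart lay above all 3 controls (26.3% of all genes). Both held, with GR-cKO replicate 3 lowest and GR-cKO replicate 1 highest, for 14 members (4.6% of all genes). GR-cKO replicate 2 lay within the control range for 16 members (49.7% of all genes), below it for 10 (25.4%) and above it for 6 (24.9%). GR-cKO replicate 3 was under the mean of the other GR-cKO hearts by more than 0.5 on the log2 scale in 29 members, against 15.8% of all genes, with a median difference of -0.81 beside 0.0045 for all genes. In the heat map of members by library this is the low column at the right.

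**Figure D1:**
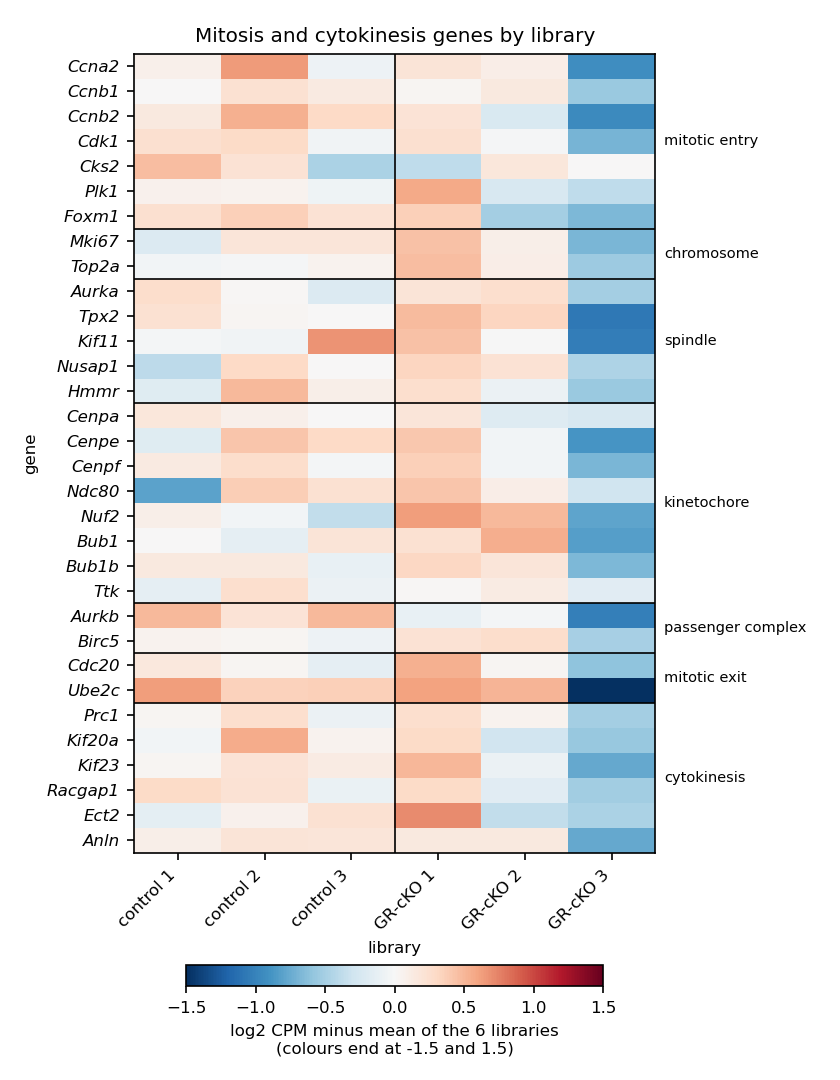
Level of each of the 32 genes (rows, by role) in each of the 6 libraries (columns), as log2 CPM minus the gene's mean over the libraries (colour). GR-cKO 3 is the lowest library in 30 rows, and GR-cKO 1 is the highest in 15.

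Of the mitotic entry genes 6 of 7 had a log2 fold change below 0, with a median of -0.27. That median was -0.48 without GR-cKO replicate 1 and -0.10 without GR-cKO replicate 3. Ccnb2, a B-type cyclin, was at 13.1, 17.2 and 14.5 CPM in control and at 13.6, 10.1 and 6.02 CPM in GR-cKO hearts, each in the order of replicates 1 to 3, as below. GR-cKO replicates 2 and 3 lay below all controls while GR-cKO replicate 1 lay among them. The means were 14.9 ± 2.07 and 9.91 ± 3.80 CPM (SD, n = 3 each). On the log2 scale the difference was -0.59 (SE 0.249, 95% interval -1.11 to -0.07, adjusted p = 0.998 by edgeR), and -0.33 without GR-cKO replicate 3. Ccnb1, the B-type cyclin that Cdk1 needs for entry, differed less, with 14.5, 17.0 and 15.9 CPM in control and 14.7, 15.9 and 9.74 CPM in GR-cKO hearts. Here only GR-cKO replicate 3 was outside the control range. Its transcript end matches 4 annotated pseudogenes at 96.4 to 99.5% identity, all at 0 reads, so its count is uncertain where reads match several copies.

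Cdk1, the kinase that drives entry, was among the most abundant members by CPM, at 124, 129 and 102 CPM in control and 125, 104 and 65.3 CPM in GR-cKO hearts. Its log2 fold change was -0.27 with an SE of 0.198 (95% interval -0.71 to 0.16) and -0.05 without GR-cKO replicate 3. Foxm1, the transcription factor that switches on the late mitotic programme, was at 13.2, 14.3 and 13.0 CPM in control and 14.4, 7.83 and 6.99 CPM in GR-cKO hearts. The control hearts lay close together, at 13.5 ± 0.707 CPM (SD, n = 3), and GR-cKO replicate 1 lay just above them while GR-cKO replicates 2 and 3 lay below all of them. Near its 3′ end Foxm1 shares 144 exon bases with Tex52 and 97 with Gm44596 on the same strand, so its count is uncertain there.

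Plk1, the polo-like kinase of centrosome maturation and exit, split differently. It was at 53.6, 52.9 and 48.8 CPM in control hearts, 75.8 CPM in GR-cKO replicate 1 and 43.2 and 39.2 CPM in GR-cKO replicates 2 and 3. The group means, 51.8 ± 2.57 and 52.7 ± 20.1 CPM (SD, n = 3 each), differed by less than the spread, with 1 GR-cKO heart above and 2 below all controls. Ccna2, the A-type cyclin of S phase and early mitosis, ran from 21.1 to 34.7 CPM in control and from 11.6 to 25.5 CPM in GR-cKO hearts, and its last exons overlap those of Exosc9 on the other strand. Cks2, a small subunit of Cdk1 complexes, had only 57 to 133 reads per library and did not follow the others, with its lowest values in control replicate 3 (2.99 CPM) and GR-cKO replicate 1 (3.18 CPM) and 4.20 CPM in GR-cKO replicate 3.

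In the chromosome genes the group means differed by less than the spread, and the GR-cKO hearts were split. Top2a, the topoisomerase that untangles sister chromatids, was at 90.8, 92.1 and 97.0 CPM in control and 129, 99.9 and 64.1 CPM in GR-cKO hearts. Every GR-cKO heart lay outside the narrow control range, 2 above it and 1 below. Its log2 fold change was 0.06 with an SE of 0.197 (95% interval -0.37 to 0.50), and without GR-cKO replicate 3 it was 0.29 (edgeR unadjusted p = 0.0207, adjusted p = 0.953). Mki67, which coats mitotic chromosomes and marks cycling cells, was at 22.1, 28.9 and 29.1 CPM in control and 34.8, 27.3 and 15.8 CPM in GR-cKO hearts. GR-cKO replicate 1 was the highest of the 6 hearts and GR-cKO replicate 3 the lowest.

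Spindle genes had a median log2 fold change of -0.04 (0.07 with spike-in scaling), with 4 of 5 below 0. Without GR-cKO replicate 1 it was -0.30 with 5 of 5 below 0, and without GR-cKO replicate 3 it was 0.18 with 2 of 5 below 0. Tpx2, which targets Aurora A to spindle microtubules, was at 27.4, 23.8 and 23.4 CPM in control and 32.4, 29.1 and 11.0 CPM in GR-cKO hearts. The GR-cKO hearts lay on both sides of the controls, and the mean of GR-cKO replicates 1 and 2 was 2.79 times that of GR-cKO replicate 3. Aurka, the Aurora A kinase itself, was at 23.3, 19.8 and 16.9 CPM in control and 22.3, 23.2 and 13.7 CPM in GR-cKO hearts. Kif11, the motor that pushes the spindle poles apart, was at 9.27, 9.09 and 15.2 CPM in control and 12.9, 9.43 and 4.57 CPM in GR-cKO hearts. Its lowest value rested on 85 reads. Nusap1, which bundles spindle microtubules, ran from 15.3 to 24.8 CPM in control and from 14.6 to 25.3 CPM in GR-cKO hearts, and Hmmr, a spindle pole protein, from 11.2 to 17.7 and from 8.55 to 15.1 CPM.

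Kinetochore and checkpoint genes had a median log2 fold change of -0.05 (0.04 with spike-in scaling), with 5 of 8 below 0. The median was -0.17 when GR-cKO replicate 1 was left out (7 of 8 below 0) and 0.12 when GR-cKO replicate 3 was (1 of 8 below 0). Cenpa, the histone variant that marks centromeres, was the steadiest abundant member, at 119, 111 and 106 CPM in control and 120, 92.2 and 89.2 CPM in GR-cKO hearts. Its fold change was the most precise of the 32 (log2 -0.15, SE 0.126, 95% interval -0.42 to 0.11), which leaves out a change of 1.5-fold or more in either direction. Cenpf, a large protein of the outer kinetochore, was at 53.7, 58.8 and 48.0 CPM in control and 62.8, 47.6 and 30.3 CPM in GR-cKO hearts. Cenpe, the kinetochore motor that aligns chromosomes, ran from 17.8 to 27.0 CPM in control and from 10.9 to 26.9 CPM in GR-cKO hearts. In all 3 genes GR-cKO replicate 1 was the highest GR-cKO heart and GR-cKO replicate 3 the lowest.

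The checkpoint kinases lay below the other GR-cKO hearts by different amounts in GR-cKO replicate 3. Bub1b, the gene of BubR1, was at 35.2, 35.2 and 29.4 CPM in control hearts and 39.7 and 36.1 CPM in GR-cKO replicates 1 and 2, with 561 to 806 reads, and had 372 reads in GR-cKO replicate 3. Its paralogue Bub1 was rarer, at 2.41 to 3.04 CPM in control and 3.13, 3.91 and 1.45 CPM in GR-cKO hearts, the last on 27 reads, the smallest count of any member. Ttk, the gene of the kinase Mps1, was at 6.65 to 8.73 CPM in control and 7.37, 7.92 and 6.45 CPM in GR-cKO hearts, so that GR-cKO replicate 3 lay just under the lowest control. Ndc80 and Nuf2 encode partners of the complex that grips microtubules. Nuf2 was at 4.42, 4.06 and 3.20 CPM in control and 6.48, 5.89 and 2.37 CPM in GR-cKO hearts, the largest positive log2 fold change of the members at 0.33 (SE 0.352) and 0.67 without GR-cKO replicate 3 (edgeR unadjusted p = 0.0385, adjusted p = 0.953). Ndc80 ran from 2.89 CPM in control replicate 1 to 6.87 CPM in GR-cKO replicate 1, with 4.14 CPM in GR-cKO replicate 3. Its transcript end matches the pseudogenes 2700099C18Rik (167 reads over the 6 libraries) and Gm47120 (0 reads) at 95.1 and 96.2% identity. The Ndc80 count is therefore uncertain where reads match several copies.

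Aurkb was the only member whose groups did not overlap, against 5.27% of all tested genes with GR-cKO below control and 4.7% with GR-cKO above. Aurkb encodes Aurora B, the kinase of the chromosomal passenger complex that corrects faulty attachments and later acts at the midzone. It was at 5.73, 4.68 and 5.72 CPM in control and 3.74, 3.96 and 1.94 CPM in GR-cKO hearts, from 36 to 131 reads per library. The means were 5.37 ± 0.604 and 3.21 ± 1.11 CPM (SD, n = 3 each). Its log2 fold change was the most negative of the members, -0.74 (SE 0.324, 95% interval -1.42 to -0.06, edgeR adjusted p = 0.998). It was -0.48 without GR-cKO replicate 3. Its partner Birc5, the gene of survivin, had no such difference, at 45.2, 44.6 and 41.4 CPM in control and 50.9, 52.2 and 30.9 CPM in GR-cKO hearts (log2 fold change 0.03, 95% interval -0.32 to 0.38), and GR-cKO replicate 3 was its only heart below the controls.

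Because 3′ reads do not scale with transcript length, CPM of partners can be set against each other within a library. The log2 ratio of Aurkb to Birc5 was -2.98, -3.26 and -2.86 in control and -3.77, -3.72 and -4.00 in GR-cKO hearts, without overlap, and it was below every control also in GR-cKO replicate 1, the heart with the highest mitotic score. Groups lay apart in 1 of the 7 pairs of partners set against each other. Of single tested genes, 5.27% lay apart with GR-cKO below and 4.7% with GR-cKO above, but no such share was taken over ratios. Aurkb lay apart by itself, so its ratio is not a separate result, and the count does not single out the pair. The ratio of Ccnb2 to Ccnb1 was -0.15 to 0.02 in control and -0.11, -0.66 and -0.69 in GR-cKO hearts 1, 2 and 3. The ratios of Kif23 to Racgap1, Ndc80 to Nuf2, Bub1 to Bub1b, Tpx2 to Aurka and Cdc20 to Ube2c overlapped between the groups. The pairs were chosen with the members' levels known, and no test was made of them.

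Ube2c, the ubiquitin-conjugating enzyme of the anaphase-promoting complex, differed most between hearts. It was at 86.6, 71.1 and 72.0 CPM in control hearts and 85.7, 79.8 and 10.3 CPM in GR-cKO replicates 1, 2 and 3, or 1373 to 1980 reads in 5 libraries and 191 reads in GR-cKO replicate 3. The mean of GR-cKO replicates 1 and 2 was 8.05 times the level of GR-cKO replicate 3, where the other members had ratios of 0.941 to 2.79. Its log2 fold change of -0.39 had a 95% interval of -2.62 to 1.85, the widest of the members, and was 0.11 without GR-cKO replicate 3. The exons of Ube2c overlap those of Tnnc2, a skeletal muscle troponin gene on the other strand, which had 47 reads in GR-cKO replicate 3 and 0 to 13 reads in the other libraries. The part of that overlap in the Ube2c value was not tested. The last 300 transcript bases of Ube2c, and those of Cenpf, also match other transcripts at 95% identity or more over 100 bases, so both counts are uncertain where reads match several genes.

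Cdc20, which recruits substrates to the same complex, was at 68.8, 63.0 and 56.2 CPM in control and 89.5, 62.8 and 40.4 CPM in GR-cKO hearts. The mean of GR-cKO replicates 1 and 2 was 1.88 times GR-cKO replicate 3, within the range of the other members. The log2 ratio of Cdc20 to Ube2c was 1.98 in GR-cKO replicate 3 and -0.36 to 0.06 in the other 5 hearts. The ends of Cdc20 and Elovl1, on opposite strands, share 53 exon bases.

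**Figure D2:**
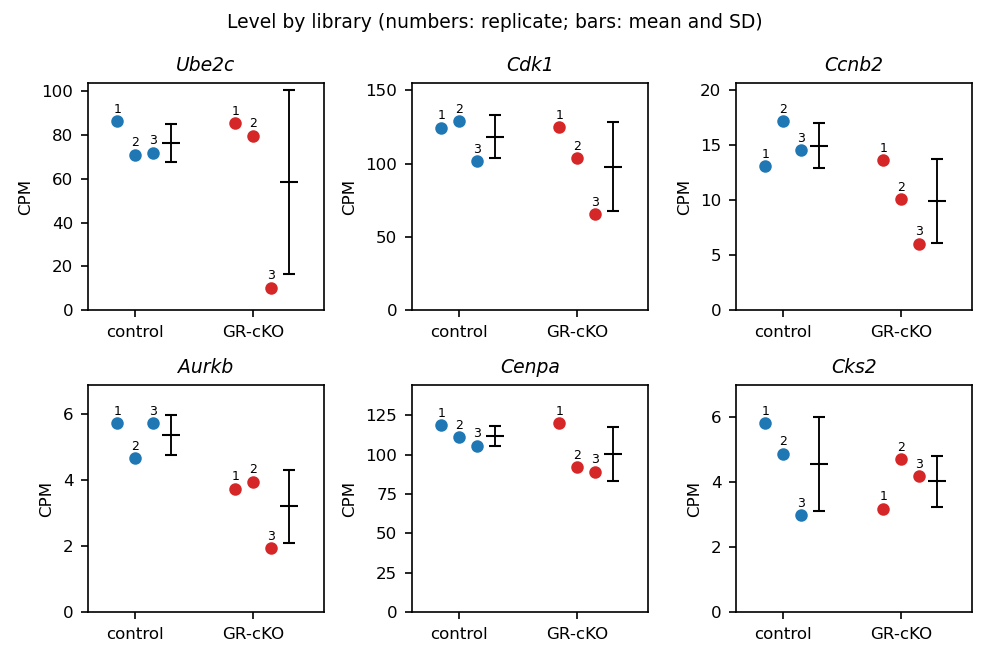
CPM of 6 members in each heart (points, numbered by replicate, blue for control and red for GR-cKO), with the group mean and SD (black, n = 3). Ube2c is at 10.3 CPM in GR-cKO 3 and at 71.1 CPM or more elsewhere, Aurkb has no overlap between groups, and Cks2 does not follow the other members.

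Midzone and cytokinesis genes had a median log2 fold change of -0.20, with 5 of 6 below 0. Leaving out GR-cKO replicate 1 gave -0.48 with 6 of 6 below 0, and leaving out GR-cKO replicate 3 gave 0.04 with 3 of 6 below 0. Kif23 and Racgap1 encode the motor and the GTPase-activating protein of centralspindlin, which bundles the midzone and recruits Ect2. Kif23 was at 28.8, 32.7 and 30.8 CPM in control and 39.9, 26.6 and 16.6 CPM in GR-cKO hearts, and Racgap1 at 26.6, 25.4 and 20.3 CPM and 26.5, 19.4 and 15.2 CPM. In both genes GR-cKO replicates 2 and 3 lay under all controls. Ect2, the exchange factor that activates RhoA at the cleavage furrow, was at 4.98, 5.75 and 6.45 CPM in control and 9.05, 4.24 and 3.93 CPM in GR-cKO hearts. Its group means were alike, 5.73 ± 0.733 and 5.74 ± 2.87 CPM (SD, n = 3 each), although no GR-cKO heart lay within the control range.

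Anln, the scaffold of the contractile ring, was at 10.4, 11.3 and 11.1 CPM in control and 10.9, 10.8 and 5.70 CPM in GR-cKO hearts, so that only GR-cKO replicate 3 left the control range. Prc1, which crosslinks antiparallel microtubules, was at 32.5, 37.9 and 29.9 CPM in control and 37.9, 33.0 and 22.2 CPM in GR-cKO hearts. Kif20a, the midzone motor that carries Aurora B, was at 20.1, 30.6 and 21.4 CPM in control and 25.2, 16.9 and 13.9 CPM in GR-cKO hearts (log2 fold change -0.36, SE 0.214). The last 300 transcript bases of Kif20a and of Prc1 lie within exons of Cdc23 and Rccd1 on the other strand, so their counts are uncertain if strand was not used. Cdc23 itself had 49.3 CPM in GR-cKO replicate 3, and 71.7 to 79.7 CPM in the rest.

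Cytokinesis members differed most from spindle and kinetochore members in GR-cKO replicate 2, where the spindle and kinetochore scores were alike. Spindle scores were -0.02, 0.15 and 0.11 in control and 0.34, 0.14 and -0.73 in GR-cKO replicates 1, 2 and 3. Kinetochore scores were -0.07, 0.17 and 0.01 in control and 0.32, 0.15 and -0.57 in GR-cKO hearts. Cytokinesis scores were 0.04, 0.25 and 0.07 in control and 0.36, -0.12 and -0.60 in GR-cKO hearts. The kinetochore score minus the cytokinesis score was -0.12, -0.08 and -0.05 in control and -0.04, 0.26 and 0.03 in GR-cKO hearts, and the spindle score minus the cytokinesis score was 0.26 in GR-cKO replicate 2 and -0.12 to 0.05 elsewhere. In GR-cKO replicate 2, 4 of the 6 cytokinesis members lay below all controls and none above. Of the 8 kinetochore members 2 lay below and 3 above, and of the 5 spindle members 0 lay below and 1 above. Over all tested genes 25.4% lay below and 24.9% above in this library. The spindle score minus the kinetochore score was -0.01 in GR-cKO replicate 2 and was largest in size in GR-cKO replicate 3 (-0.15). In the wider lists given below, other cytokinesis, spindle and kinetochore genes scored 0.06, 0.05 and 0.05 in GR-cKO replicate 2. With a single heart showing the split of the members, it is a description of that library.

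All 3 groups were low in GR-cKO replicate 3. The median difference of this heart from the mean of the other GR-cKO hearts was -0.73 for spindle, -0.88 for kinetochore and -0.66 for cytokinesis members on the log2 scale, and within these groups single members ran from -1.47 (Tpx2) to -0.24 (Cenpa and Ttk).

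**Figure D3:**
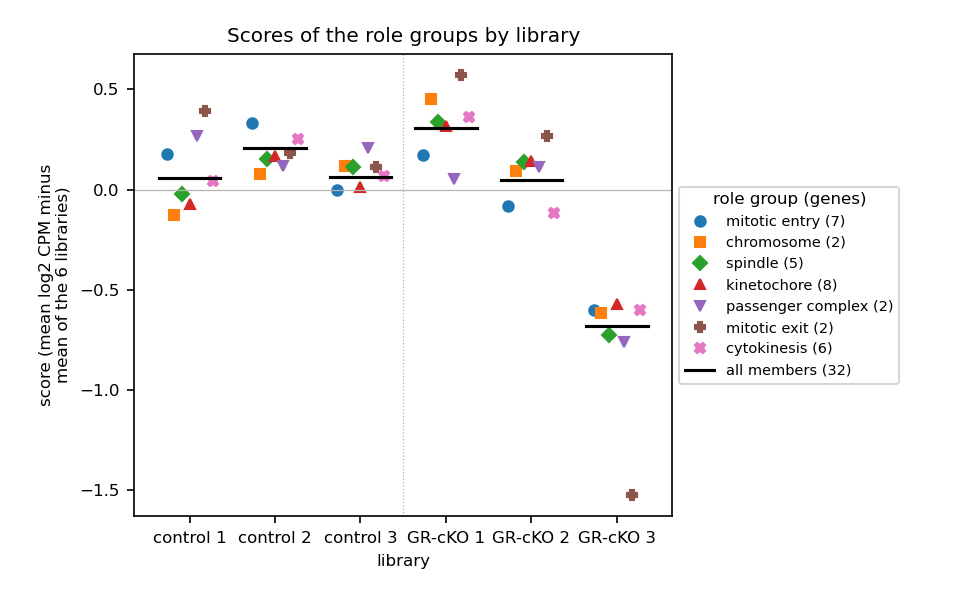
Score of each role group (symbols) and of all 32 members (black bars) in each library, on the log2 scale relative to the mean of the 6 libraries. GR-cKO 1 has the highest score of all members (0.31) and GR-cKO 3 the lowest (-0.68), and in GR-cKO 2 the cytokinesis genes (-0.12) lie below the spindle (0.14) and kinetochore genes (0.15).

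**Figure D4:**
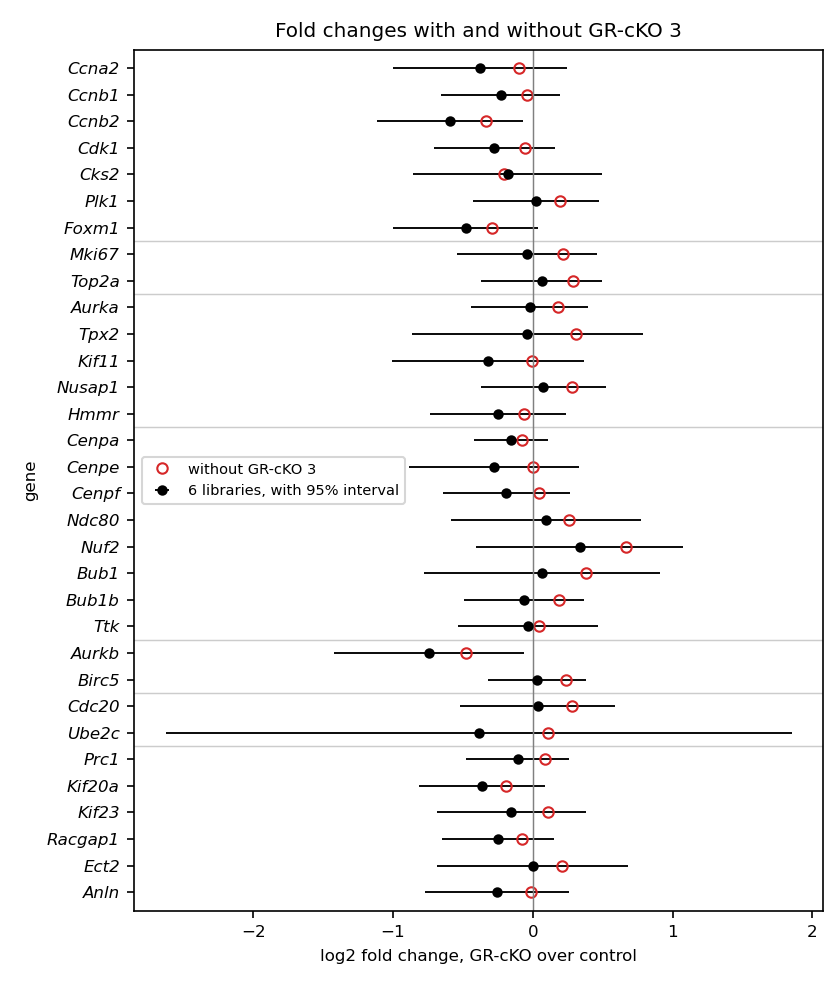
Log2 fold change of each member, GR-cKO over control, from all 6 libraries (black, with the 95% interval) and without GR-cKO 3 (red circles). Only Ccnb2 and Aurkb have intervals that leave out 0, and 13 of 32 red circles lie below 0, where 23 black points do.

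For 26 of the 32 members the 95% interval of the fold change left out a 2-fold change in either direction, against 72.2% of all tested genes, and for 10 it left out a 1.5-fold change, against 47.8%. The median SE was 0.241 for the members and 0.207 for all tested genes. The labels call the hearts of a group biological replicates, and 3 hearts per group limit what the test can call. In counts simulated for this comparison over 14465 genes, 61.9% of genes changed 2-fold and 22.4% of those changed 1.5-fold were called. There 200 genes were changed, and 5 unchanged genes were also called. The simulation gave both groups the same spread, whereas the members spread more in GR-cKO hearts, so these shares need not hold for the members.

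A wider list of 99 other mitosis genes, all tested, had the same highest and lowest heart. None passed over all genes with edgeR, and at an unadjusted p under 0.05 there were 4 lower (2.13% of all tested genes) and 2 higher (2.07%). Of the 99 log2 fold changes 67 were below 0 (48.7% of all tested genes), with a median of -0.11, and 43 without GR-cKO replicate 3. The score was 0.07, 0.14 and 0.00 in control and 0.22, 0.06 and -0.48 in GR-cKO replicates 1, 2 and 3. GR-cKO replicate 3 was the lowest library for 63 of the 99, against 22% of all tested genes. Ckap2l, a spindle protein, was at 32.3, 42.0 and 23.7 CPM in control and 27.1, 20.9 and 13.4 CPM in GR-cKO hearts. Cenpi and Cenpq, of the inner kinetochore, averaged 7.66 ± 1.34 and 9.87 ± 2.59 CPM in control, and in GR-cKO hearts 4.84 ± 0.852 and 6.11 ± 1.99 CPM (SD, n = 3 each, edgeR adjusted p = 0.998 for both).

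The remaining named genes of that list included both directions. Cdc25b, a phosphatase that activates Cdk1, was at 22.7, 22.7 and 24.5 CPM in control and 29.1, 30.9 and 32.5 CPM in GR-cKO hearts, with a log2 fold change of 0.40 (SE 0.141, adjusted p = 0.998 by edgeR). All 3 GR-cKO hearts lay above the controls, GR-cKO replicate 3 being the highest of them. Of the 99 genes this held for 1, against 4.7% of all tested genes, and 3 had all GR-cKO hearts below the controls (5.27%). Mybl2, the B-Myb factor that joins MuvB to switch mitotic promoters on, was at 3.93, 3.90 and 2.26 CPM in control and 9.38, 5.66 and 3.50 CPM in GR-cKO hearts (log2 fold change 0.87, SE 0.356). Sass6, a centriole protein, was at 6.50 ± 0.964 and 4.52 ± 1.33 CPM, and Cep55, which acts at the midbody in abscission, at 8.37 ± 0.931 and 6.18 ± 1.31 CPM. The condensin genes Ncaph and Smc4 had log2 fold changes of -0.36 (SE 0.339) and -0.14 (SE 0.141). Rhoa, the GTPase of the contractile ring and of many other cell functions, was at 275 ± 47.4 and 322 ± 12.6 CPM.

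The other cytokinesis genes of the list, which include Rhoa, Rock1 and myosin II genes used outside division, were less low in GR-cKO replicate 3, with a score of -0.25, and their median log2 fold change was 0.02. Genes of DNA replication and S phase had scores of 0.25, 0.09 and 0.02 in control and 0.20, 0.03 and -0.58 in GR-cKO hearts. The mitotic score minus this score was -0.19, 0.12 and 0.05 in control and 0.11, 0.02 and -0.10 in GR-cKO hearts. The ranges of this difference overlapped between the groups.

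Markers of cell types were read beside the low mitotic genes of GR-cKO replicate 3. For fibroblasts (10 of 10 tested) the summed level was 4415 to 5373 CPM in control and 4184 to 4385 CPM in GR-cKO hearts, for endothelial cells (10 of 10) 1878 to 2168 and 1994 to 2224 CPM, for macrophages (10 of 10) 131 to 137 and 133 to 145 CPM, and for erythroid cells (8 of 11) 6668 to 9359 and 6894 to 7895 CPM. In GR-cKO replicate 3 their scores were -0.02, -0.03, -0.02 and -0.15, beside -0.68 for the mitotic genes. The cardiomyocyte markers (12 of 12) summed to 80430 to 92917 CPM in control and 87481 to 107150 CPM in GR-cKO hearts and were highest in GR-cKO replicate 3, with a score of 0.14. Lymphocyte and thymus markers (4 of 13 tested, Ptcra at 0 reads) summed to 1.49 to 6.73 CPM in control and 3.39 to 6.13 CPM in GR-cKO hearts. Their scores were -1.29, 0.91 and -0.73 in control and 0.90, 0.79 and -0.58 in GR-cKO replicates 1 to 3, so they were lowest of the GR-cKO hearts in replicate 3, as the mitotic genes were, on 34 to 131 reads per library. Neutrophil markers (5 of 10 tested, Elane at 0 reads) summed to 13.4 to 15.7 and 20.1 to 28.0 CPM. Their scores were -0.28, -0.44 and -0.19 in control and 0.91, -0.14 and 0.14 in GR-cKO hearts, highest in GR-cKO replicate 1, the heart with the highest mitotic score. The median difference of GR-cKO replicate 3 from the mean of the other GR-cKO hearts was -0.81 for the mitotic genes. It was -0.94 for the lymphocyte and thymus markers and -0.64 for the neutrophil markers. For fibroblast, endothelial, macrophage, erythroid and cardiomyocyte markers it was -0.0064, 0.036, 0.067, -0.19 and 0.24. GR-cKO replicate 3 was the lowest library for 30 of the 32 mitotic genes. This held for 1 of the 4 lymphocyte and thymus markers and 1 of the 5 neutrophil markers, against 22% of all tested genes. In GR-cKO replicate 3 the lymphocyte and thymus score lay within the control range. The neutrophil scores of all 3 GR-cKO hearts, not only of this heart, lay above that of every control. Mural markers (8 of 8) summed to 958 to 1002 CPM in control and 850 to 1122 CPM in GR-cKO hearts, epicardial markers (8 of 8) to 972 to 1389 and 929 to 1721 reads, adipose markers (6 of 8, Lep and Retn at 0 reads) to 117 to 289 and 129 to 176 CPM, and skeletal muscle markers (5 of 8, Pax7 and Myod1 at 0 reads) to 158 to 180 and 119 to 229 CPM. The part of these cells, of the sex of the heart or of the Gm42418 share in the mitotic levels was not tested.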

How the data were processed

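The 6 QuantSeq 3′ mRNA libraries of mouse heart, 3 control and 3 GR-cKO, were grouped by their titles. The authors deposited raw read counts per Ensembl gene, 1 library per file. The build was GRCm38, and STAR 2.5.4a, featureCounts 1.6.2, cutadapt 1.16 and DESeq2 1.18.1 are named, along with bcl2fastq, MultiQC 1.5 and FastQC 0.11.7, per the submitters' processing notes. The sources used here do not give the annotation release, strand setting or filters. The 99 spike-in rows (1.63 to 2.01% of reads) entered neither library sizes nor tests.

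Genes were filtered with filterByExpr, scaled with TMM and tested with edgeR 4.0.16 (quasi-likelihood F test, robust; R 4.3.3), with Benjamini-Hochberg adjustment over 14860 genes and a threshold of 0.05. SEs and 95% intervals follow the F statistic. CPM are relative to reads of tested genes times the TMM factor; log2 CPM use a prior count of 2. Alternatives were DESeq2 1.42.0, limma 3.58.1 voom, 3 other scalings, no filter, a sex term, a replicate block and each library left out. The fit was tested on simulated data. Members, role groups, lists, partner pairs and promoter words were chosen with earlier results of these data known. Named genes are the 32 members, Nr3c1 and, of each of 5 lists of other mitosis genes, the genes called and the 2 of smallest p; other genes were named as overlaps or library checks. Overlaps and copies (at least 95% identity over 100 bases with the last 300 transcript bases) came from GENCODE M21. No 2 libraries were copies (smallest chi-square per degree of freedom 9.62).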

Additional observations from a re-analysis of the deposited data

How the results depend on the processing

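Nr3c1 was the only gene called by edgeR, and the number of genes called was 2 with library totals, 10 with no low-count filter, 3 with DESeq2, and 1 to 2 with a library left out (2 without GR-cKO replicate 2 or 3); the cause was not tested. No member was called under any of the 14 alternatives, with a smallest adjusted p of 0.848, with no low-count filter. The members' median log2 fold change was between -0.18 and -0.08 under the alternatives that kept all libraries and between -0.31 and 0.07 with a library left out, being above 0 without GR-cKO replicate 3. The number of members below 0, 23 of 32, was 28 with the replicate block and with limma voom, 26 with a sex term, 25 with library totals, 24 with no low-count filter and 18 with spike-in scaling, where the median of all genes was 0.05. Members lower at an unadjusted p under 0.05 numbered 6 with no low-count filter, 5 with the replicate block, 3 with a sex term or limma voom and 0 with spike-in scaling, against 2. The spindle and kinetochore medians were 0.07 and 0.04 with spike-in scaling. The score moved by more than the SD of its group with spike-in scaling in control replicate 2, to 0.0745, and control replicate 3, to 0.1518, and in no other library or setting. That SD was 0.0864 in control but 0.512 in GR-cKO hearts, so a GR-cKO score could move further without passing it. With spike-in scaling GR-cKO replicate 2 moved from 0.05 to 0.27 and GR-cKO replicate 3 from -0.68 to -0.93, both further than the 2 controls.

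The members given here changed sign. With library totals the log2 fold change was -0.0026 for Plk1, -0.027 for Ect2. With spike-in scaling the log2 fold change was 0.050 for Mki67, 0.070 for Aurka, 0.073 for Tpx2, 0.038 for Bub1b, 0.040 for Ttk. With no low-count filter the log2 fold change was -0.0016 for Ect2. With the replicate block the log2 fold change was -0.034 for Plk1, -0.017 for Bub1, -0.0045 for Birc5, -0.029 for Cdc20, -0.089 for Ect2. With a sex term the log2 fold change was -0.033 for Plk1, -0.0097 for Cdc20, -0.091 for Ect2. With limma voom the log2 fold change was -0.044 for Plk1, -0.021 for Bub1, -0.0061 for Birc5, -0.038 for Cdc20, -0.11 for Ect2. With a library left out the range was -0.41 to 0.035 for Cks2, -0.33 to 0.20 for Plk1, -0.30 to 0.22 for Mki67, -0.18 to 0.29 for Top2a, -0.16 to 0.18 for Aurka, -0.30 to 0.31 for Tpx2, -0.088 to 0.28 for Nusap1, -0.59 to 0.0048 for Cenpe, -0.45 to 0.044 for Cenpf, -0.20 to 0.31 for Ndc80, -0.25 to 0.38 for Bub1, -0.24 to 0.19 for Bub1b, -0.11 to 0.10 for Ttk, -0.10 to 0.24 for Birc5, -0.28 to 0.28 for Cdc20, -0.76 to 0.11 for Ube2c, -0.27 to 0.085 for Prc1, -0.50 to 0.11 for Kif23, -0.48 to 0.21 for Ect2. Ccna2, Ccnb1, Ccnb2, Cdk1, Foxm1, Kif11, Hmmr, Cenpa, Aurkb, Kif20a, Racgap1 and Anln kept a negative sign throughout. Nuf2 kept a positive sign throughout.

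Control and GR-cKO libraries of the same number had correlations of 0.062, 0.0562 and 0.0144 between their deviations from the group means. Control replicates 1 and 2 correlated best with the GR-cKO library of their own number, and control replicate 3 with GR-cKO replicate 1 (0.0228). The sex read from the libraries also matched by number. Correlations this small, with 3 libraries per group, cannot decide whether the numbers pair the libraries. The replicate block left 1 gene called, and 28 members lay below 0 with it, against 23 without it. Depth limits the rarer members: 7 had under 100 reads in at least 1 library.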
